A study of Mus musculus with 2 samples.

Results

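The neutrophils of mice given a low dose of CBL0137 were compared with those of mice given the vehicle, across all genes and in each of 2 droplet libraries on its own. Neutrophils were chosen by S100a8 and S100a9, the calprotectin subunits: a cell was kept where these 2 genes made up at least 10% of its gene UMIs (unique molecular identifiers, 1 per captured transcript). This gave 4106 of 14421 cells, of which 3392 belonged to the vehicle or the low dose. The liver-labelled library held 1265 vehicle and 1277 low dose neutrophils, and the spleen-labelled library held 296 and 554. Since the 2 genes chose the cells, their own levels are a description only. S100a8 and S100a9 were at 143628 and 183435 UMIs per 1000000 (CPM) with the vehicle and at 151144 and 188356 CPM at the low dose in the liver-labelled library, and at 131017 and 167907 CPM against 143521 and 171703 CPM in the spleen-labelled library.

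The animals were female BALB/cAnNCrl mice, 7 to 8 weeks old, that carried liver metastases of 4T1 cells (a mouse mammary carcinoma line) placed through a hemisplenectomy. They then received a hepatic arterial infusion of 15 min with either the vehicle, 5% dextrose, or CBL0137 at a low or a high dose, and cells were taken 5 days later. CBL0137 is a DNA-binding small molecule that traps the histone chaperone FACT on chromatin. The sources differ on the day of infusion after implantation, which is left out here, and the methods name a single amount of CBL0137 for infusion that they do not tie to the low or the high dose, so no amount is given. Each group was a pool of 2 mice told apart by a hashtag (a barcoded antibody): the vehicle carried A0301, the low dose A0305 and the high dose A0310. The methods list the barcodes of all 3 hashtags but name A0301 and a short form of A0310 for staining, and they describe CD11b+ bead-isolated cells where the labels say leukocytes. With 1 pool per group and library there was no replicate, so nothing was tested, and a difference between mice cannot be told apart from a difference between doses. All intervals are at 95% and cover counting error only, so for a gene held by a few cells they are too narrow.

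Neutrophils are made in the bone marrow and load their granules in order, first the primary granules with elastase and myeloperoxidase, then the secondary and tertiary granules with lactoferrin, cathelicidin and gelatinase, after which these transcripts wane in the mature cell. In inflamed tissue they make interleukin-1 beta, chemokines and acute phase proteins, many of them under the transcription factor NF-kB. In mice with 4T1 tumours neutrophils and their precursors expand and are counted among the myeloid-derived suppressor cells.

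Facts about the libraries stand before the results. Transcripts of liver cells went against the labels: over all cells with a group, 10 hepatocyte genes summed to 3.56 CPM in the liver-labelled library and 209 CPM in the spleen-labelled library, and 5 Kupffer and liver endothelial genes summed to 10.2 and 504 CPM. Of the genes listed for spleen, Cr2, Fcer2a and Ighd were at 34.9, 18.1 and 80.1 CPM in the liver-labelled library. They were at 8.03, 6.03 and 23.1 CPM in the spleen-labelled library. Spic and Hbb-bs went the other way, at 9.78 and 1972 CPM against 11.9 and 2488 CPM. Both libraries are therefore named by their labels only. The libraries shared 15 barcodes, of which 0 were neutrophils in both. The neutrophil markers fitted the cells: all 15 markers of a list that did not contain the choosing genes were at least 2-fold higher in the chosen cells than in the other cells of the same library, with a median of 10.9-fold in the liver-labelled library and 14.4-fold in the spleen-labelled library.

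Neutrophils made up 37.6% of the vehicle cells (exact binomial interval 36.0% to 39.3%) and 37.5% of the low dose cells (35.8% to 39.1%) in the liver-labelled library. They made up, in the spleen-labelled library, 36.1% (32.8% to 39.5%) and 42.0% (39.4% to 44.8%). The intervals of the 2 groups overlapped in the first library and barely in the second. At the high dose the share was 11.1% (9.76% to 12.5%) and 9.04% (7.91% to 10.3%). The methods describe bead isolation, whose part in these shares cannot be told apart. Few cells lay near the limit of 10%: 85 vehicle and 48 low dose cells had S100a8 and S100a9 at 8% to 10%, and 77 and 47 had 10% to 12%, in the liver-labelled library, with 26 and 18 just outside and 23 and 24 just inside in the spleen-labelled library.

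The summed depth of the neutrophils was 15633439 UMIs with the vehicle and 14472989 at the low dose in the liver-labelled library, and 2963499 and 4036432 in the spleen-labelled library. A vehicle neutrophil had a median of 7056 UMIs against 7670 at the low dose in the former, and 7601.5 against 5125.5 in the latter. Cells in which the granule transcripts Camp, Ngp, Ltf and Lcn2 together reached 1% of UMIs made up 40.1% of the vehicle neutrophils (37.4% to 42.8%) and 44.9% of the low dose neutrophils (42.2% to 47.7%) in the liver-labelled library. These shares in the spleen-labelled library were 51.0% (45.2% to 56.8%) and 57.0% (52.8% to 61.2%). At the high dose they were 87.3% and 83.0%, so the makeup of the low dose neutrophils by granule transcripts lay much nearer the vehicle's.

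Most genes differed little between the low dose and the vehicle. A gene was compared where the groups together had 50 UMIs or more, and was called past 2-fold where the ratio of its CPM was at least 2 in either direction. In the liver-labelled library 92.0% of the 8900 genes compared had a log2 ratio (low dose to vehicle) within 0.5 of 0, 18 genes were past 2-fold higher (0.202% of the genes compared) and 65 were past 2-fold lower (0.73%). In the spleen-labelled library 81.0% of 5941 genes were within 0.5 of 0, 85 genes were higher (1.43%) and 45 were lower (0.757%). The median log2 ratio was -0.03 in both libraries. The direction thus differed: 21.7% of the genes past 2-fold were higher in the liver-labelled library and 65.4% in the spleen-labelled library. The latter split turned under alternatives: it was 27.7% once the cells above the 95th percentile of UMIs were left out and 34.9% when each cell was scaled before averaging.

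The UMIs of many of these genes sat in a few cells. In the liver-labelled library the 10 cells with the most UMIs of a gene, in the group where it was higher, held a median of 14.0% of its UMIs over all genes compared, 35.0% over the genes called higher and 39.5% over the genes called lower. These medians in the spleen-labelled library were 27.3%, 31.7% and 47.1%. The share also depends on how many UMIs a gene has, and the called genes were not matched to the others on this. The 10 cells held at least 50% of the UMIs for 27 of the 65 lower genes in the former and 18 of the 45 in the latter, and for 4 of 18 and 18 of 85 higher genes.

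Few genes agreed between the libraries past 2-fold, of 5927 genes compared in both. Whether the same mice gave both libraries is not stated, so agreement between them may be within the same animals. Bcl2l15, Il1b and Wfdc2 were higher in both (0.0506%), and Ifit1 and Ms4a6c were lower in both (0.0337%). The 3 higher genes were 42.9% of the 7 genes called higher in the liver-labelled library and 3.85% of the 78 called higher in the spleen-labelled library, counting genes compared in both. The pair of lower genes were 7.14% of 28 and 4.44% of 45. Without cells that held 2 or more UMIs of markers of other types, Bcl2l15 had log2 ratios of 2.90 and 4.92 and Il1b 0.98 and 1.56. Il1b then fell just short of 2-fold in the liver-labelled library.

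**Figure D1:**
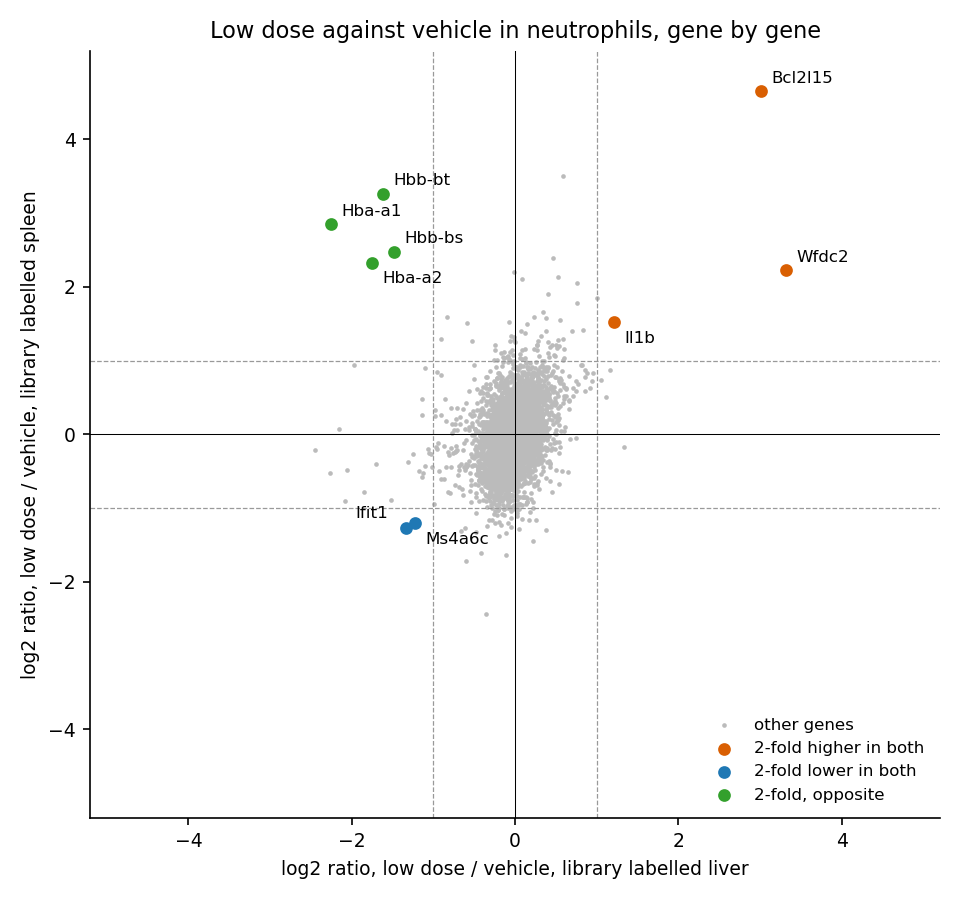
Each point is 1 of the 5927 genes compared in both libraries, placed by its log2 ratio of low dose to vehicle CPM in the liver-labelled library (x axis) and in the spleen-labelled library (y axis), with dashed lines at 2-fold. Bcl2l15, Wfdc2 and Il1b stand in the upper right, Ifit1 and Ms4a6c in the lower left, and 4 haemoglobin genes in the upper left.

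Bcl2l15 had the largest ratio of all genes compared in the spleen-labelled library and was exceeded in size by Gzma and Wfdc2 in the liver-labelled library. It encodes a little-studied BCL2-like protein named for its similarity to the BCL2 family of death regulators, and the gene (ENSMUSG00000044165) lies on the forward strand at chr3:103832601-103854618 of mm10, where the annotation marks it as overlapping another locus. In the liver-labelled library it was at 2.88 CPM (2.10 to 3.85) with the vehicle and at 23.2 CPM (20.8 to 25.8) at the low dose, and in the spleen-labelled library at 4.39 CPM (2.34 to 7.50) and 110.5 CPM (101 to 121). The intervals of the 2 groups were far apart in both libraries. The log2 ratios were 3.01 (2.56 to 3.49) and 4.65 (3.87 to 5.58). At the high dose, which shares its vehicle group with the low dose, Bcl2l15 was at 2.81 CPM and 2.94 CPM, within the vehicle's interval.

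Il1b, which encodes the precursor of interleukin-1 beta, was the most abundant of the agreeing genes (chr2:129364570-129371139, reverse strand). It was at 321 CPM (312 to 330) with the vehicle and at 741 CPM (727 to 755) at the low dose in the liver-labelled library, and at 765 CPM (734 to 797) and 2188 CPM (2143 to 2234) in the spleen-labelled library. The log2 ratios were 1.21 (1.16 to 1.26) and 1.52 (1.45 to 1.58). At the high dose Il1b was at 100.3 CPM and 304 CPM, below the vehicle in both libraries. That order turned among cells in which the granule transcripts made up 1% to 5%, where Il1b at the high dose was at 157 CPM (143 to 173) against 73.9 CPM (65.7 to 82.9) with the vehicle in the liver-labelled library and at 350.1 CPM (320.1 to 382) against 219 CPM (192 to 248.8) in the spleen-labelled library. Its UMIs were spread widely: the 10 cells with the most held 5.04% of the low dose UMIs in the liver-labelled library and 8.90% in the spleen-labelled library.

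Wfdc2, a member of the whey acidic protein family of protease inhibitors, was sparse. It had 8 UMIs with the vehicle and 74 at the low dose in the liver-labelled library (0.512 and 5.11 CPM), and 13 and 83 UMIs (4.39 and 20.6 CPM) in the spleen-labelled library. The log2 ratios were 3.32 (2.27 to 4.58) and 2.23 (1.38 to 3.20). At the high dose it was at 0 UMIs in the former and 6.20 CPM in the latter.

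Among genes with at least 100 UMIs in each library, the 10 that were higher in both by the largest smaller ratio were Bcl2l15, Il1b, Smox, Orm1, Gm26532, Zc3h12a, 4833407H14Rik, Il1rn, Acod1 and Scd2. Il1rn, the secreted antagonist of the interleukin-1 receptor, was at 13.4 CPM with the vehicle and 22.7 CPM at the low dose in the liver-labelled library, and at 16.9 and 58.0 CPM in the spleen-labelled library, with log2 ratios of 0.76 (0.51 to 1.02) and 1.78 (1.33 to 2.25). The ligand Il1b and its antagonist Il1rn were thus higher together in both libraries. Zc3h12a, the RNase regnase-1 that degrades inflammatory transcripts, had log2 ratios of 0.83 (0.49 to 1.18) and 1.41 (0.81 to 2.06). Acod1, the enzyme that makes itaconate, had log2 ratios of 1.06 (0.76 to 1.37) and 0.74 (0.48 to 1.00).

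Orm1, the acute phase protein orosomucoid 1, was at 73.9 CPM with the vehicle and 134 CPM at the low dose in the liver-labelled library, and at 127 and 233 CPM in the spleen-labelled library. Smox, a spermine oxidase, had log2 ratios of 0.96 (0.69 to 1.22) and 0.83 (0.35 to 1.33), and Scd2, a stearoyl-CoA desaturase, had 0.94 (0.67 to 1.22) and 0.72 (0.28 to 1.17). All 10 genes had intervals that excluded 0 in both libraries. The choice of genes fixed their agreement, so it is a description. At the high dose 8 of them were at or below the vehicle in both libraries. The exceptions were Scd2, with log2 ratios of 1.00 and 0.72 to the vehicle at the high dose, and Il1rn, with 0.18 and 0.26. The high dose cells differed in granule makeup, as given above. At 1% to 5% of granule transcripts Zc3h12a was at 6.91 CPM at the high dose against 4.01 with the vehicle, and at 11.2 against 7.40. Acod1 was at 8.36 against 7.02 CPM, and at 39.7 against 33.3, all with overlapping intervals. Orm1 was at 19.3 against 52.4 CPM, and at 110.88 against 110.93.

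**Figure D2:**
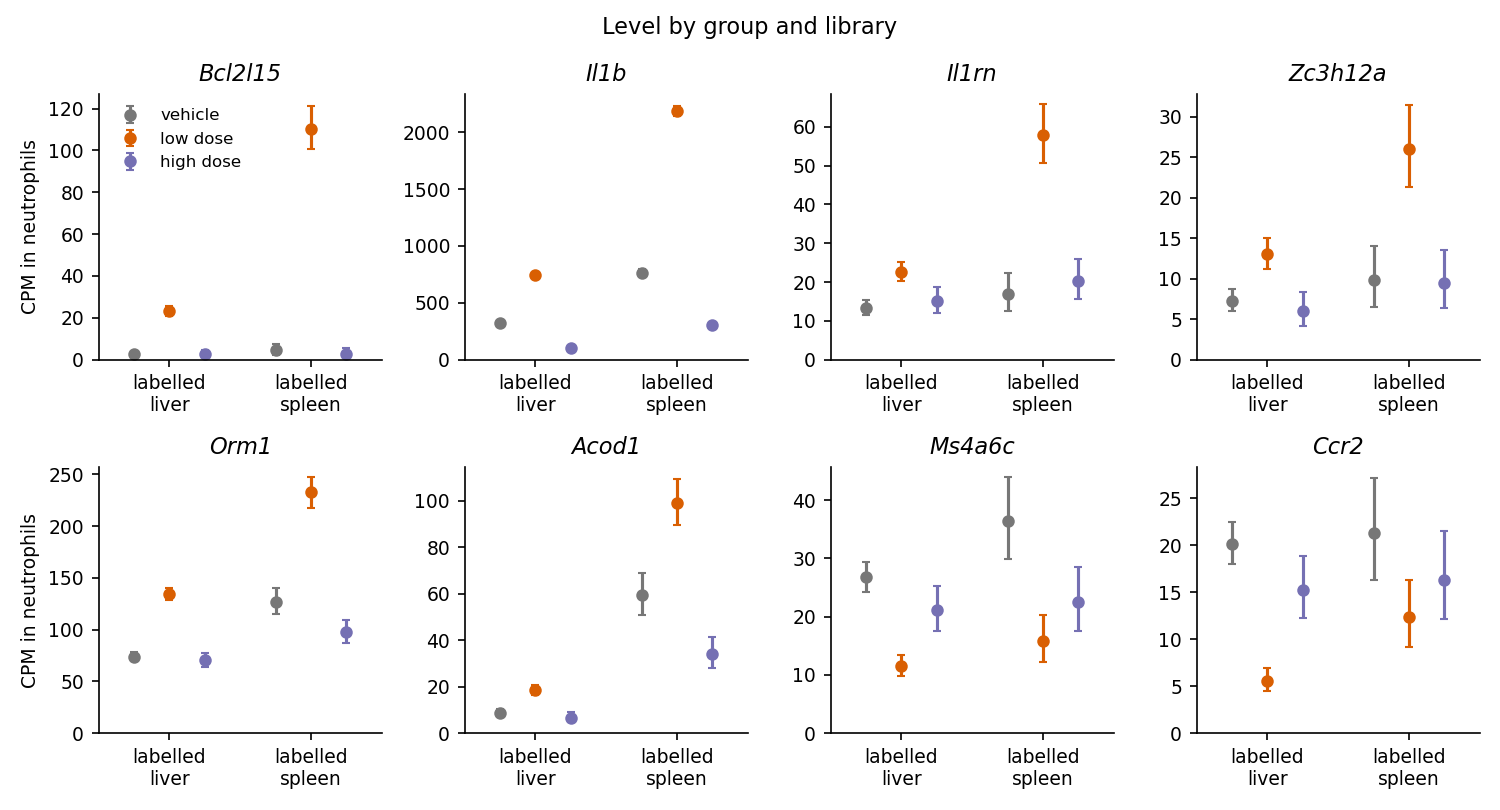
CPM in neutrophils (y axis, linear from 0) of 8 genes in the vehicle, low dose and high dose groups of each library; points are the 1 pool of each group and bars are exact Poisson intervals. The low dose is the highest group for Bcl2l15, Il1b, Il1rn, Zc3h12a, Orm1 and Acod1 and the lowest for Ms4a6c and Ccr2 in both libraries.

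The genes lower in both libraries were of another kind. Ms4a6c, a membrane protein of monocytes and macrophages, was at 26.7 CPM with the vehicle and 11.5 CPM at the low dose in the liver-labelled library, and at 36.4 and 15.9 CPM in the spleen-labelled library, with log2 ratios of -1.22 (-1.49 to -0.96) and -1.20 (-1.67 to -0.74). Ifit1, an interferon-induced protein that binds foreign RNA, was at 11.9 and 4.70 CPM in the former and at 16.2 and 6.69 CPM in the latter, with log2 ratios of -1.34 (-1.76 to -0.93) and -1.28 (-2.01 to -0.57). The UMIs of both came from few cells. In the vehicle, 10 cells held 67.9% and 94.4% of the Ms4a6c UMIs in the 2 libraries, and 45.2% and 85.4% of the Ifit1 UMIs. Among cells with S100a8 and S100a9 at or above 20% neither gene agreed past 2-fold: Ms4a6c was at -1.07 and -0.84, and Ifit1 at -1.02 in the liver-labelled library and under 50 UMIs in the spleen-labelled library.

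The 10 lower genes with at least 100 UMIs in each library were Ms4a6c, Ccr2, Ms4a6d, S100a10, Irgm1, Fah, Glo1, Kif20b, H2-Ab1 and Zbp1. Ccr2, the receptor that draws monocytes out of the marrow, had log2 ratios of -1.85 (-2.22 to -1.49) and -0.78 (-1.34 to -0.22), and 10 vehicle cells held 70.2% and all of its UMIs. Ms4a6d lies near Ms4a6c on chromosome 19 and resembles it, so reads may be shared between them; its log2 ratios were -0.66 (-1.01 to -0.32) and -1.31 (-1.78 to -0.85). Zbp1, the sensor of Z-form nucleic acid, was at 32.0 CPM with the vehicle and 14.1 CPM at the low dose in the liver-labelled library, and at 31.7 and 22.5 CPM in the spleen-labelled library, with log2 ratios of -1.18 (-1.42 to -0.94) and -0.49 (-0.92 to -0.06). Below 0.2% of granule transcripts in the liver-labelled library, a range defined further on, the order was reversed: Ms4a6c had 3 vehicle and 26 low dose UMIs, and Ccr2 6 and 17. Zbp1 was spread more evenly, with 13.0% and 29.8% of its vehicle UMIs in 10 cells.

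The promoters of the genes the results turn on are shown: Bcl2l15 and Il1b as the higher genes, and Ifit1 as the lower one. Saa3 is shown because it stood highest in cells with Bcl2l15 beside those without, within 1 granule range described further on. Some lists below group genes by a signal, such as NF-kB targets and interferon-stimulated genes, and most by function. Each line gives the 250 bases before the start in RefSeq on GRCm38.p6, 5′ to 3′, at chr3:103832446-103832695 (forward), chr7:46715677-46715926 (reverse), chr2:129371140-129371389 (reverse) and chr19:34640639-34640888 (forward). The Bcl2l15 and Saa3 windows reach into the genes as GENCODE places them, since the annotations differ in the start. Capitals mark matches on either strand to TTGCNNAA (the core bound by C/EBP factors), GGG, any 3 bases and TTCC (NF-kB), or GAAA, any 2 bases and GAAA (the interferon-stimulated response element).
Bcl2l15: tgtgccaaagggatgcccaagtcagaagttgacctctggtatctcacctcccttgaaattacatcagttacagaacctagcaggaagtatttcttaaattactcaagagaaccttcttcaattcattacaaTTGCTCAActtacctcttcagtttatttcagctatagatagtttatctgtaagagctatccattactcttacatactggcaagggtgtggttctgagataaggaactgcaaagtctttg
Saa3: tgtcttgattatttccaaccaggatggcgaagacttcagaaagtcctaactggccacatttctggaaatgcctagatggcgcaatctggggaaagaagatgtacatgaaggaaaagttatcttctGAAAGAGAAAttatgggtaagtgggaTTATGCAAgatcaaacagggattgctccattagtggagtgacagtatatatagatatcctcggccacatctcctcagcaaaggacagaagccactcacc
Il1b: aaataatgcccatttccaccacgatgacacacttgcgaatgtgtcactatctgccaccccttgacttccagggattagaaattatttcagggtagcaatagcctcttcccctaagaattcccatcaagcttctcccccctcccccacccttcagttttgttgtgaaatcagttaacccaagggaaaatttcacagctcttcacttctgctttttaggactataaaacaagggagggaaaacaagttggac
Ifit1: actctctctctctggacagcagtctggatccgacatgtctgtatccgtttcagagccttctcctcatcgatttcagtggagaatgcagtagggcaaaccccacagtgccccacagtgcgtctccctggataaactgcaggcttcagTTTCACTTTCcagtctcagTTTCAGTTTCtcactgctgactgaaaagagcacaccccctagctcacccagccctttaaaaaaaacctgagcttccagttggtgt
Bcl2l15 and Saa3 each held 1 match to the C/EBP letters, Saa3 also 1 to the interferon element, Ifit1 2 to the interferon element, and none of the 4 windows held the NF-kB letters. Over the promoters of 27025 genes of the same length, 9.55% held the C/EBP letters, 4.60% the NF-kB letters and 3.04% the interferon element. A match describes the sequence and is no measure of binding, and the motifs were chosen after the genes were known.

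Most of the Bcl2l15 signal at the low dose came from a minority of cells. At least 1 UMI was seen in 107 of 1277 low dose neutrophils in the liver-labelled library (8.38%, 6.92% to 10.0%) against 40 of 1265 vehicle neutrophils (3.16%, 2.27% to 4.28%). In the spleen-labelled library it was seen in 122 of 554 (22.02%, 18.6% to 25.7%) against 12 of 296 (4.05%, 2.11% to 6.97%). The low dose groups held 50 and 63 cells with 3 or more UMIs and the vehicle groups 0 and 0, with up to 15 and 17 UMIs in 1 cell. After each cell was thinned to 1000 UMIs, which left out 5 to 6 shallower cells per group, the shares were 2.04% (1.34% to 2.98%) at the low dose and 0.397% (0.129% to 0.924%) with the vehicle in the liver-labelled library, and 10.9% (8.46% to 13.9%) and 0.687% (0.0833% to 2.46%) in the spleen-labelled library. Cells with 3 or more UMIs of T cell markers and under 1% of S100a8 and S100a9 were set beside these, though it was not shown that they lack the gene. They gave 0.497% (0.162% to 1.16%) and 1.45% (0.176% to 5.14%) at the low dose after thinning, at median depths of 4640 and 4684 UMIs. With the vehicle they gave 0.413% and 0 of 76 cells, which allows a share of up to 3.95%. The low dose shares of neutrophils lay above these intervals, and the vehicle shares did not. The difference was not confined to neutrophils. In the other cells of the groups Bcl2l15 was at 7.91 CPM with the vehicle and 13.6 CPM at the low dose in the liver-labelled library. The spleen-labelled library had 4.78 and 20.8 CPM in such cells. At the high dose they were at 7.77 and 3.67 CPM.

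The cells were then sorted by the share of granule transcripts (Camp, Ngp, Ltf and Lcn2) into 4 ranges, a division chosen after the data were seen. The ranges describe the sum of these transcripts and not cell types, and whether they follow maturity was not tested. Bcl2l15 was highest at the low dose in the range of 1% to 5%. There it was at 2.26 CPM in 236 vehicle cells and 54.4 CPM in 317 low dose cells of the liver-labelled library, and at 4.62 CPM in 83 and 231 CPM in 227 cells of the spleen-labelled library, with log2 ratios of 4.59 (3.64 to 5.74) and 5.64 (4.41 to 7.27). In the cells with 5% and over the log2 ratios were 2.10 (1.30 to 2.97) and 2.04 (0.45 to 4.05). Below 0.2% it was at 4.81 and 29.6 CPM in the liver-labelled library (4 and 21 UMIs), and had 1 vehicle and 0 low dose UMIs in the spleen-labelled library. Some cells lie near the bounds: 41 vehicle and 65 low dose cells in the former library, and 12 and 23 in the latter, had a granule share of 0.9% to 1.1%.

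Il1b behaved otherwise. It was highest in the cells with the least granule transcripts, at 2219 CPM with the vehicle and 3998 CPM at the low dose below 0.2% in the liver-labelled library and at 6594 and 12129 CPM in the spleen-labelled library. It was higher at the low dose in all 4 ranges of both libraries, with log2 ratios of 0.85, 1.28, 1.77 and 1.19 from the lowest to the highest range in the former and 0.88, 1.31, 2.41 and 0.13 in the latter, the last with an interval that included 0 (-0.31 to 0.57). Il1b was thus higher within the ranges, that last value apart. The ranges are wide, and vehicle Il1b fell from 2219 CPM in the lowest to 16.8 CPM in the highest range of the liver-labelled library. Whether the granule content of the groups differed within a range was not tested.

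Saa3, an acute phase serum amyloid A protein, differed in direction between the libraries as a whole and along the ranges. Over all neutrophils it was at 2151 CPM with the vehicle and 1432 CPM at the low dose in the liver-labelled library, a log2 ratio of -0.59 (-0.61 to -0.56), and at 1056 and 2991 CPM in the spleen-labelled library, a log2 ratio of 1.50 (1.45 to 1.56). Below 1% of granule transcripts it was lower at the low dose in both libraries, with log2 ratios of -0.64 and -1.06 in the former and -0.20 and -0.18 in the latter. In the range of 1% to 5% it was higher in both, at 583 CPM with the vehicle and 1127 CPM at the low dose in the former and at 193 and 4716 CPM in the latter. In that range Wfdc2 had 0 UMIs with the vehicle and 63 at the low dose in the liver-labelled library, and 3 and 74 in the spleen-labelled library.

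Other genes showed the same place of difference. In the range of 1% to 5% Irak3, an inhibitor of interleukin-1 and Toll-like receptor signalling, was at 16.0 CPM with the vehicle and 46.6 CPM at the low dose in the liver-labelled library, and at 15.7 and 71.6 CPM in the spleen-labelled library. Il1rn was at 13.3 and 32.2 CPM in the former and at 15.7 and 90.5 CPM in the latter. Saa1, the circulating serum amyloid A protein, was at 0.501 and 24.1 CPM in the former and at 3.70 and 121 CPM in the latter. Below 0.2% in the liver-labelled library Saa1 went the other way, with 51 vehicle and 6 low dose UMIs. For Saa1 the 10 cells with the most held 92.0% and 65.4% of all low dose UMIs, so these values rest on few cells.

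**Figure D3:**
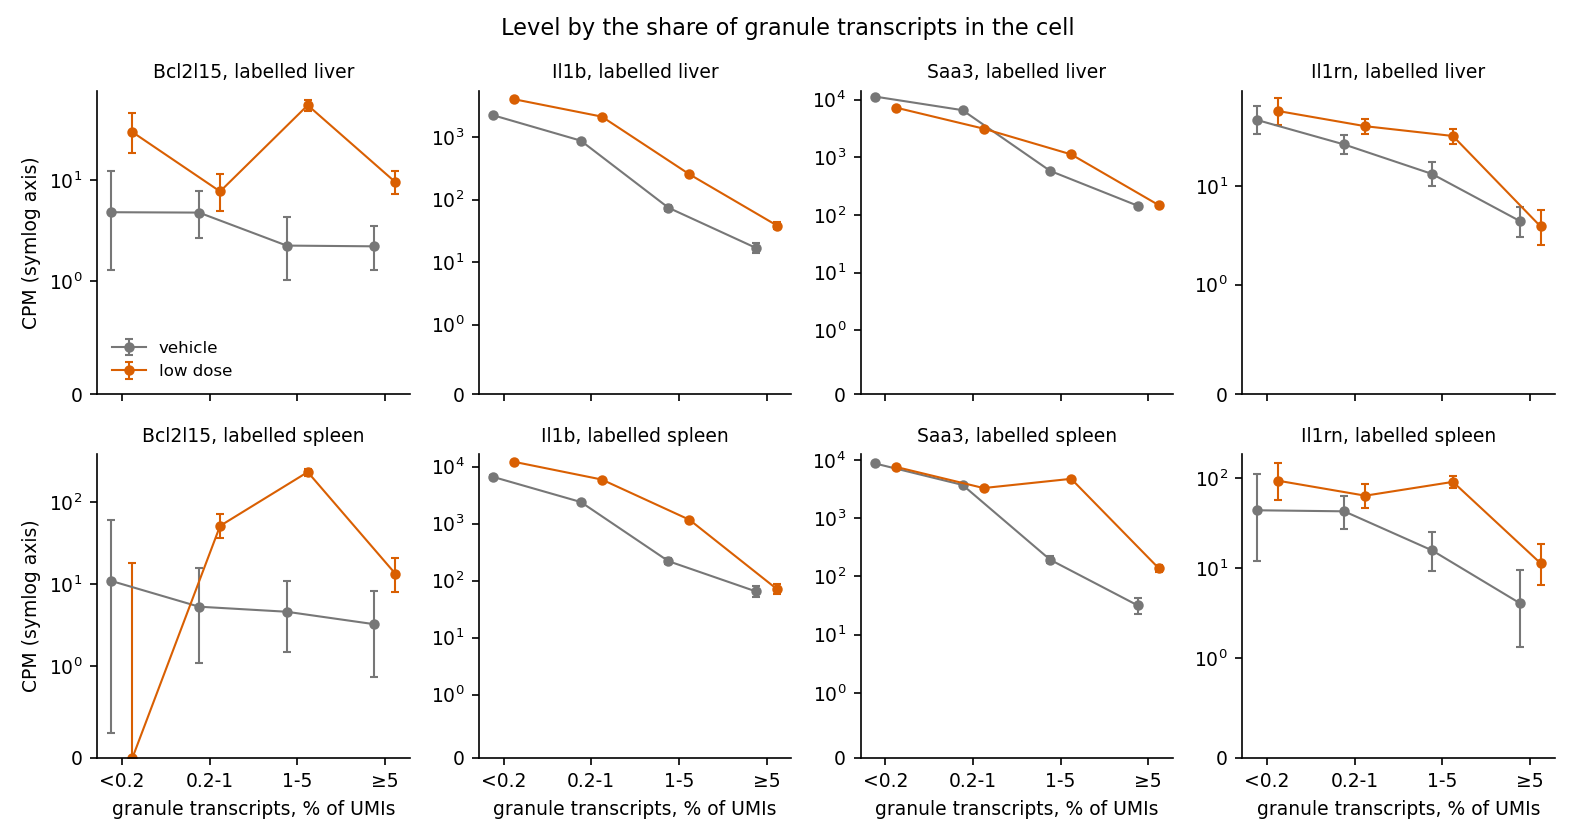
CPM (y axis, logarithmic above 1 and linear below) of Bcl2l15, Il1b, Saa3 and Il1rn in vehicle and low dose neutrophils of each library, by the share of Camp, Ngp, Ltf and Lcn2 in the UMIs of the cell (x axis, percent); points are sums over the cells of a range and bars are exact Poisson intervals. Bcl2l15 at the low dose is highest at 1% to 5%, at 54.4 and 231 CPM, where Saa3 changes from below to above the vehicle.

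Within the low dose cells of 1% to 5% granule transcripts, those with a Bcl2l15 UMI were set beside those without: 62 and 255 cells in the liver-labelled library and 101 and 126 in the spleen-labelled library. The cells were picked by a measured gene after the data were seen, so the values are a description of 1 pool per library. The 2 sets had median depths of 12278 and 12313 UMIs in the former and 5400 and 7534 UMIs in the latter, and median granule shares of 2.29% and 2.13%, and 1.90% and 2.26%. Of 1435 genes with at least 100 UMIs in both libraries, Saa3 stood highest by the smaller of the ratios in the 2 libraries. It was at 4129 CPM with and 401 CPM without Bcl2l15 in the former and at 10987 and 1380 CPM in the latter. Saa3 was not tied to Bcl2l15 in all ranges. Low dose cells below 0.2% in the spleen-labelled library had Saa3 at 7552 CPM and 0 Bcl2l15 UMIs. Prnp, the prion protein, was at 151 and 22.02 CPM, and at 368 and 51.7 CPM. Irak3 was at 131 and 26.1 CPM, and at 152 and 29.0 CPM.

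The next genes in the order of the smaller of the 2 ratios were Orm1, Saa1, Il1r2 (the decoy receptor for interleukin-1), Dusp1 (a phosphatase that shuts off MAP kinases), Gpr141, Jun, Trp53inp1, Sod2 (mitochondrial superoxide dismutase), Il1rn, Glul, the chemokine Cxcl2 and Rilpl2. Il1r2 was at 891 and 163 CPM in the liver-labelled library and at 1538 and 401 CPM in the spleen-labelled library. Il1b differed in direction between the libraries: it was at 207 CPM with and 264 CPM without Bcl2l15 in the former and at 1613 and 930 CPM in the latter. Wfdc2 was at 47.4 and 7.05 CPM, and at 116 and 5.44 CPM.

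Among the genes lower in the cells with Bcl2l15, Lyz2, lysozyme, was at 716 CPM with and 2324 CPM without it in the liver-labelled library and at 385 and 2311 CPM in the spleen-labelled library. Ly6g, the surface marker by which mouse neutrophils are sorted, was at 332 and 1034 CPM, and at 245 and 865 CPM. Ltf, lactoferrin, was at 703 and 1421 CPM, and at 322 and 1691 CPM, and Padi4, the enzyme that citrullinates histones in extracellular traps, was at 82.7 and 163 CPM, and at 29.0 and 101 CPM. Camp, on the same list of identity markers as Ly6g, was lower in both libraries, at 1995 and 2814 CPM, and at 775 and 3084 CPM. Ngp of that list was nearly level in the liver-labelled library, at 11097 and 11397 CPM. It was lower in the spleen-labelled library, at 6265 and 11671 CPM. Il1r2, also on that list, was higher in both. The median share of the choosing genes S100a8 and S100a9 in a cell was 34.5% with and 39.8% without Bcl2l15 in the liver-labelled library and 23.5% and 35.2% in the spleen-labelled library. Whether the cells came from 1 or both mice of a pool cannot be told apart.

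**Figure D4:**
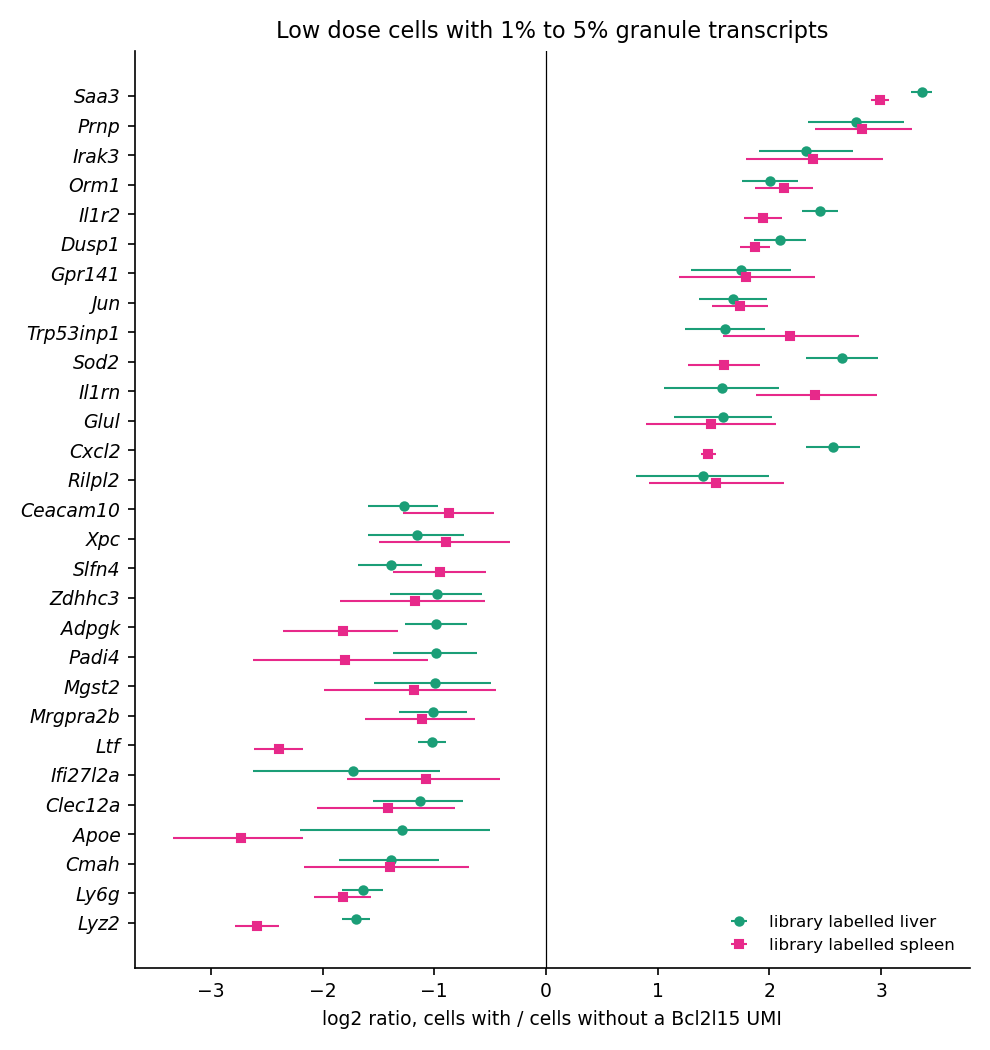
log2 ratio (x axis) of the CPM in low dose neutrophils with a Bcl2l15 UMI to that in those without, among cells with 1% to 5% granule transcripts, for the 14 higher and 15 lower genes with the largest smaller ratio of the 2 libraries; bars are exact binomial intervals. Genes are ordered by the smaller ratio, by which Saa3, Prnp and Irak3 lead and Lyz2 and Ly6g close; Saa1 is left out because it had 0 UMIs in the cells without Bcl2l15 in the liver-labelled library.

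The gene lists placed these genes in their pathways. Of 33 targets of NF-kB and inflammatory signals, 29 were measured in the liver-labelled library, 25 lay above 0 (43.9% of all genes did), 1 (Il1b) was past 2-fold higher and 0 past 2-fold lower, with a median log2 ratio of 0.37 beside -0.03 over all genes. In the spleen-labelled library 27 were measured, 26 lay above 0 (46.8% of all genes did), 10 were past 2-fold higher and 0 lower, with a median of 0.83, where 1.43% of all genes were higher. The 10 were Il1b, Il1rn, Traf1, Relb, Nlrp3, Tnfaip3, Sod2, Nfkbid, Ptgs2 and Csf1, of which Csf1 was at -0.028 in the cells with 1% and over of granule transcripts. Nlrp3, the inflammasome sensor, was at 17.7 CPM with the vehicle and 22.9 CPM at the low dose in the liver-labelled library and at 14.5 and 43.4 CPM in the spleen-labelled library. Relb, an NF-kB subunit, was at 9.53 and 12.6 CPM, and at 4.72 and 17.6 CPM.

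The inhibitor of NF-kB did not follow in both libraries. Nfkbia was at 302 CPM with the vehicle and 261 CPM at the low dose in the liver-labelled library, a log2 ratio of -0.21 (-0.27 to -0.15), and at 343 and 608 CPM in the spleen-labelled library, a log2 ratio of 0.83 (0.72 to 0.93). Chemokine ligands parted too: 1 of 7 lay above 0 in the former, with a median of -0.64 and Ccl4 past 2-fold lower at -1.14, and 5 of 7 in the latter, with a median of 0.34 and Ccl3 past 2-fold higher at 1.60. Over all genes 43.9% lay above 0 and 0.73% were past 2-fold lower in the former, and 46.8% lay above 0 and 1.43% were past 2-fold higher in the latter. Of the immediate early genes, 16 of 25 lay above 0 in the former with a median of 0.06, and 24 of 24 in the latter with a median of 0.47. Jun had log2 ratios of -0.98 (-1.07 to -0.89) and 0.34 (0.19 to 0.48). Within the cells under 1% and with 1% and over of granule transcripts, the median of the NF-kB list was 0.23 and 0.39 in the former library and 0.62 and 0.77 in the latter. The chemokine medians were -0.47 and -0.12 in the former and -0.007 and 1.72 in the latter. In the latter library 4 of 6 chemokines were past 2-fold higher at 1% and over, beside 120 of 5143 genes. Under 1%, 1 of 7 was higher and 2 were lower, beside 56 and 30 of 2700 genes. In the latter library Ccl5, a chemokine, had 290 vehicle and 3 low dose UMIs at 0.2% to 1%. At 1% to 5% it had 2 and 188. How many cells held the chemokine UMIs in these ranges was not counted.

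Interferon-stimulated genes leaned the other way by count of genes. The 4 with the most UMIs parted: Ifitm2 had log2 ratios of 0.17 and 0.43, Ifitm6 0.10 and 0.12, and Ifitm1 0.04 and 0.11. Ifitm3 had -0.09 and -0.26. In the liver-labelled library 5 of 38 lay above 0, 6 were past 2-fold lower (Gbp3, Ifit1, Ifi47, Zbp1, Irgm1 and Oasl2) and 0 higher, with a median of -0.38, where 0.73% of all genes were lower. In the spleen-labelled library 11 of 32 lay above 0, with a median of -0.22, and Ifit1 and Bst2 were past 2-fold lower, where 0.757% of all genes were. There 10 vehicle cells held 65.5% of the Bst2 UMIs. Over all genes 43.9% and 46.8% lay above 0 in the 2 libraries. The interferon list was lower in the cells under 1% of granule transcripts, with medians of -0.60 and -0.33, than in those with 1% and over, with -0.16 and 0.03. MHC class I and antigen processing genes had medians of -0.28 and -0.18, with 0 past 2-fold. The gene Zbp1 belongs to the interferon list and the lower genes above.

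Growth and maturation genes differed more in the spleen-labelled library. The medians of 82 cytosolic ribosomal protein genes were -0.20 and -0.50, with 2 and 0 of them above 0 and 0 past 2-fold in either library. The 26 cell cycle genes had medians of -0.16 and -0.60. Of 13 primary granule genes, Elane (neutrophil elastase) and Prss57 were past 2-fold lower in the spleen-labelled library (0.757% of all genes were), with a median of -0.70, and none was past 2-fold in the liver-labelled library, with a median of 0.02. The granule split changed this: in the liver-labelled cells under 1% of granule transcripts 6 of 11 primary granule genes were past 2-fold higher, with a median of 1.59. Over all genes 56 of 6357 were higher there. In the same cells 14 of 14 cell cycle genes lay above 0 (42.5% of all genes did), with a median of 0.54. How many cells held the UMIs of these genes in that range was not counted. In the liver-labelled cells with 1% and over the medians were -0.15 and -0.20. The spleen-labelled medians were -1.07 and -0.65 for primary granule genes and -0.04 and -0.61 for cell cycle genes. Elane was at 399 CPM with the vehicle and 453 CPM at the low dose in the liver-labelled library and at 1532 and 735 CPM in the spleen-labelled library, and 10 cells held 60.6% of the vehicle UMIs in the latter. Secondary and tertiary granule genes had medians of 0.04 and 0.05. Genes of maturation, egress and ageing had 0.13 and 0.36, with 30 of 35 and 31 of 32 above 0, beside 43.9% and 46.8% of all genes. Cxcr2, the chemokine receptor of mature neutrophils, had log2 ratios of 0.27 (0.23 to 0.32) and 0.53 (0.41 to 0.65).

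The remaining lists of neutrophil functions had few members past 2-fold. Suppressive effector genes of myeloid cells had medians of 0.05 and 0.27; S100a4 and Cd274, which encodes PD-L1, were past 2-fold lower in the liver-labelled library, of 17 measured and beside 0.73% of all genes, and Arg1, Clec4n and Ptgs2 past 2-fold higher in the spleen-labelled library, of 16 and beside 1.43%. Arg1 had 20 vehicle and 92 low dose UMIs there, with 97.8% of the latter in 10 cells. Cd84, a marker of suppressor cells, was at 141 and 135 CPM, and at 77.3 and 99.6 CPM. FACT subunits and histone chaperones, the proteins nearest to the drug's target, had medians of -0.03 and -0.25, core histone genes -0.09 and -0.33, p53 targets -0.03 and 0.18, heat shock genes -0.12 and -0.25, and genes of hypoxia and glycolysis 0.03 and 0.00.

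**Figure D5:**
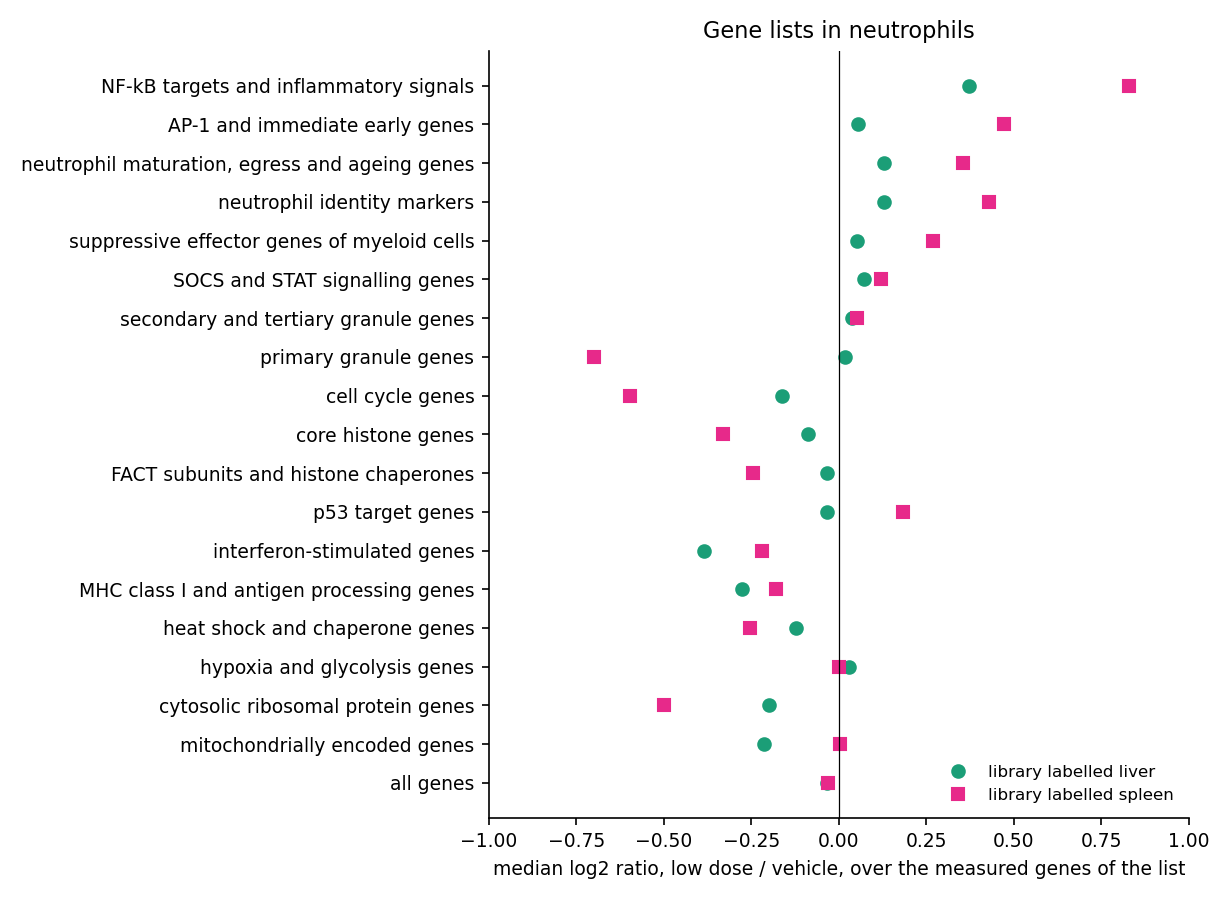
Median log2 ratio of low dose to vehicle (x axis) over the measured genes of 18 lists, chemokine ligands not among them, and over all genes, in the liver-labelled library (circles) and the spleen-labelled library (squares), with no error drawn because the members of a list are not replicates. NF-kB targets stand highest, at 0.37 and 0.83; of the lists drawn, primary granule genes part most between the libraries, at 0.02 and -0.70.

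Other genes stood out in 1 library. Among genes with at least 200 UMIs in the liver-labelled library the 6 highest were Amer2, Dusp6, Pou2f2, Acta2, Chil3 and Ifit1bl2, at log2 ratios of 0.83 to 1.25. Chil3, a chitinase-like lectin of maturing neutrophils, was the most abundant, at 711 CPM with the vehicle and 1290 CPM at the low dose there and at 728 and 1095 CPM in the spleen-labelled library. The 6 lowest were Gzma, H2-Eb1, Hba-a1, Cd74, H2-Aa and Hba-a2. In the spleen-labelled library the 6 highest were Saa1, Hbb-bt, Hba-a1, Hbb-bs, Hba-a2 and Ccl3, and the 6 lowest were Prss57, Hist1h1b, Elane, Uchl3, Tpx2 and Dbf4, at -1.22 to -0.96.

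Many of these are genes of other cell types. Gzma, a granzyme of natural killer and T cells, had 207 UMIs with the vehicle and 7 at the low dose in the liver-labelled library, with 99.0% of the vehicle UMIs in 10 cells. The summed level of 10 dendritic cell and MHC class II markers was 268 CPM with the vehicle and 58.8 CPM at the low dose in that library, with 1 and 2 of the markers at 0, and 130 and 117 CPM in the spleen-labelled library, with 3 and 2 at 0. Of 7 natural killer markers the sum was 15.3 and 2.76 CPM (1 and 3 at 0) in the former and 3.71 and 2.23 CPM (5 and 4 at 0) in the latter. The 14 monocyte and macrophage markers, Ccr2 among them, summed to 123 and 119 CPM (1 and 2 at 0), and to 171 and 220 CPM (0 and 0 at 0). When cells with markers of other types were left out, neither Ms4a6c nor Ifit1 was among the genes past 2-fold lower in both libraries. Fewer genes were then compared, 5286 in the liver-labelled library and 3603 in the spleen-labelled library. A gene can therefore leave the count for too few UMIs as well as for a smaller ratio. Which of these held, and the part of such cells in the lower Ms4a6c, Ccr2 and interferon-stimulated genes, was not tested.

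The 4 genes past 2-fold in opposite directions (0.0675% of the genes compared in both) were all haemoglobins, Hba-a1, Hba-a2, Hbb-bs and Hbb-bt, near-identical copies between which reads can be split. Hbb-bs was at 162 CPM with the vehicle and 58.0 CPM at the low dose in the liver-labelled library and at 114 and 633 CPM in the spleen-labelled library. The sum of 9 erythroid markers was 287 and 91.8 CPM (0 and 0 at 0) in the former and 175 and 1026 CPM (3 and 2 at 0) in the latter. In the group where Hbb-bs was higher, 10 cells held 81.7% and 97.9% of its UMIs. The sum of 10 hepatocyte markers was 1.79 and 0.898 CPM in the liver-labelled library (9 and 8 at 0) and 20.2 and 52.5 CPM in the spleen-labelled library (2 and 1 at 0), where Alb, Apoa1 and Hpx were past 2-fold higher. Past the haemoglobins, the gene with opposite signs and the largest smaller ratio was C1qa, a complement gene of macrophages, at -1.11 (-1.58 to -0.65) and 0.90 (0.48 to 1.34). The 5 genes higher in the liver-labelled library and lower in the spleen-labelled library (Nabp1, Ppp4r3a, Raet1e, Hspd1 and Asb7) had log2 ratios of 0.27 to 0.36 and of -0.66 to -0.26.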

How the data were processed

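Single cells of 2 droplet libraries were analysed, each mixing 3 hashtagged groups with 1 pool of 2 mice per group. The authors deposited unnormalized UMI counts for each barcode, over genes and hashtags, made with Cell Ranger (5.0.0 in the matrix header, 6.0.0 in the submitters' processing notes), on mm10. Gene positions were read from GENCODE mouse release 21 by identifier.

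A cell took the group of its largest hashtag where that had at least 10 UMIs and 3 times the next, which also removed doublets between groups; 206 and 59 neutrophils had no group. No caller for doublets within a group was run, and cells with other markers or the most UMIs were left out as alternatives. Counts were summed over the neutrophils of a group and scaled to CPM, with exact Poisson intervals for levels, exact conditional binomial intervals for ratios and Clopper-Pearson intervals for shares. Ratios needed 50 UMIs in the groups together. Named were the 10 genes higher and 10 lower in both libraries (at least 100 UMIs in each), 6 per direction and library (200 UMIs), 5 of each kind with opposite signs, list members past 2-fold or else the 4 with the most UMIs, and S100a8, S100a9, Il1b and Cd84; Wfdc2 and Ifit1 and the genes of the Bcl2l15 cells were named after their values were seen. The members, lists and named genes were chosen with earlier results of these data known. Tools were pandas 2.3.3, scipy 1.17.1 and numpy 2.4.6 under Python 3.11.15. The ratio and its interval were tested on simulated independent Poisson counts, the model behind the interval. That test did not cover UMIs held by few cells or differences between mice.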

Additional observations from a re-analysis of the deposited data

Results flagged for a closer look

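Haemoglobin genes differed past 2-fold in opposite directions between the libraries, as log2 ratios of low dose to vehicle in neutrophils: Hbb-bt at -1.62 and 3.26, Hbb-bs at -1.48 and 2.48, Hba-a1 at -2.26 and 2.85, and Hba-a2 at -1.76 and 2.33, in the liver-labelled and spleen-labelled libraries. The difference between the libraries was not tested, since each group was 1 pool. When cells with 2 or more UMIs of erythroid or platelet markers were left out, an alternative chosen after seeing the data, Hbb-bs was at -0.04 in the liver-labelled library and 0.42 in the spleen-labelled library.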

How the results depend on the processing

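No paired analysis was possible because each group was 1 pool per library and no result came from a test; no replicate could be left out for the same reason. The 83 genes past 2-fold in the liver-labelled library became 305 when each cell was scaled before averaging, 602 at a minimum of 10 UMIs, 27 at 200 UMIs and 167 in cells under 1% of granule transcripts. The 130 genes in the spleen-labelled library became 218 with S100a8 and S100a9 at or above 5%, 346 without cells above the 95th percentile of UMIs, 372 when each cell was scaled before averaging, 767 at 10 UMIs, 27 at 200 UMIs and 86 under 1% of granule transcripts. The 5 agreeing genes became 11 with a hashtag at 10 times the next, 17 when each cell was scaled before averaging, 34 at 10 UMIs, 2 at 200 UMIs and 13 in cells of 1% and over of granule transcripts. With S100a8 and S100a9 at or above 20% the count stayed at 5, all higher, and kept 2 of the original 5. Leaving out cells with 2 or more UMIs of markers of other types kept 443 and 419 cells in the liver-labelled library. In the spleen-labelled library it kept 147 and 298. Of the 5 agreeing genes 1, Bcl2l15, was then among the genes that agreed. With 5286 genes compared, 3 of the 18 higher and 16 of the 65 lower genes were called again in the liver-labelled library. In the spleen-labelled library, with 3603 compared, 28 of the 85 higher and 1 of the 45 lower genes were.

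Signs turned in the liver-labelled library for Hbb-bt (0.23 with S100a8 and S100a9 at or above 20%, 0.075 in cells of 1% and over of granule transcripts, 0.42 without erythroid and platelet marker cells), Hbb-bs (0.012 at 20%, 0.94 at 1% and over), Hba-a1 (0.055 at 1% and over, 0.50 without marker cells) and Hba-a2 (0.30 at 1% and over). In the spleen-labelled library they turned for Saa3 (-0.062 under 1%) and Csf1 (-0.028 at 1% and over). These turns were counted only for values past 2-fold in the reported result. Smaller values turned too in the liver-labelled library. Saa3, at -0.59 over all neutrophils, was at 0.95 in the cells with 1% to 5% of granule transcripts. Saa1, at 0.59 over all neutrophils, was at -2.86 below 0.2%. The cause was not tested. Leaving out the erythroid and platelet marker cells was chosen after seeing the data. Over 73 named genes per library, 906 of 1113 values in the liver-labelled library and 856 of 1019 in the spleen-labelled library stayed within the counting interval of the reported value. Genes with few UMIs are limited by depth, and those held by few cells by the number of cells.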
